A study of Bos taurus with 92 samples.

Results

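Transcript levels differed between single bovine blastocysts fertilised in vitro (IVF), and this account covers that variation within 15 IVF embryos, of 46 samples in all. The embryos were those that the sample labels give the type IVF, and no measured value entered their choice. The blastocyst is the stage at which the embryo has formed an outer epithelium, the trophectoderm, around a fluid-filled cavity and an inner cell mass. The trophectoderm pumps the cavity full and later makes the placenta, in ruminants with secreted trophoblast proteins that reach the mother, and the inner cell mass gives rise to the fetus and to the primitive endoderm. Embryos produced in vitro arise from different oocytes and sperm and pass through maturation, fertilisation and culture outside the cow, so that each is a genetically distinct individual.

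Each IVF embryo was a single blastocyst, numbered 1 to 19 in the labels with gaps, and the labels give neither its day of development nor its oocyte donor, sire, sex, grade or culture. The other samples were 14 embryos from artificial insemination (AI), 15 from nuclear transfer (NT), in which an oocyte receives the nucleus of a somatic donor cell, and 2 samples of donor cells. Every sample was hybridised against a common reference RNA on 2 arrays of a 2-colour cDNA design, once labelled with Cy5 and once with Cy3, which gave 30 IVF arrays. Values are log2 ratios of the embryo to the reference after each array was centred on its median, with the 2 arrays of an embryo averaged. That the deposited ratio is Cy5 over Cy3 is likely and was inferred, whereas the spread between embryos and the size of correlations do not depend on it. A whole embryo was measured in bulk, so that fewer cells of a type and less RNA per cell cannot be told apart.

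The labels do not say whether the arrays of an embryo shared 1 amplification of its RNA, and error of a shared amplification cannot be told apart from a difference between embryos. No hybridisation batch or date is given. Over probes, the 2 arrays of an IVF embryo correlated with r from 0.559 to 0.764, duplicate spots with r from 0.724 to 0.914, and missing values made up 1.38% to 8.17% of an array. Intensities were not used here, so that signal over background is unknown and precision rests on how many arrays there are. The trophectoderm markers AQP3, KRT19, KRT18, TFAP2C and GATA3 lay above the array median in all 15 embryos, for AQP3 (a water and glycerol channel) from 3.06 to 4.63. Not all trophectoderm genes did so: ID2, on the list of trophectoderm transcription factors, lay below the array median in all 15, from -2.41 to -0.52. The fibroblast collagens COL3A1 and COL1A2 lay below the array median in all 15, for COL3A1 from -6.20 to -4.64. These signs depend on the inferred direction of the ratio, so that they are no separate check of the label of a blastocyst. CDX2, POU5F1, NANOG and IFNT were not analysed here.

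As a check of the labels, each embryo's deviation from the mean of the 15 was compared between its Cy5 and its Cy3 array over 4083 genes measured on all 30 arrays. In 12 embryos the arrays of the same number correlated better with each other, r 0.252 to 0.650, than with an array of any other embryo. In embryos 3, 5 and 7 they did not. Their own r was 0.087, 0.025 and 0.163, against 0.166, 0.186 and 0.166 with the nearest other embryo. For these 3 embryos, little signal of their own and a mislabelled array cannot be told apart. They were not alike in this: embryos 3 and 5 were highest or lowest of 15 on both arrays in 39 and 23 genes, embryo 7 in 143. The count of genes with an embryo effect was also computed without these 3 embryos. Values that rest on embryo 3, 5 or 7, as in IFT88, POLR1H, PAG12, RPS9 and the fibroblast and blood lists, carry the limit of a poor match.

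Spread between embryos went beyond the disagreement of the arrays for many genes. The embryo SD is the standard deviation between embryos after the dye-swap error is taken off, the dye-swap SD is the error of 1 array, and reliability is the share of the variance of 1 array that lies between embryos. A moderated F test with Benjamini-Hochberg adjustment called an embryo effect in 1779 of 4361 genes, or 40.8%. The median embryo SD was 0.30 and the median dye-swap SD was 0.36 on the log2 scale. Hence a typical gene differed between embryos by less than 1 array was in error, and 95% of genes had an embryo SD of at most 0.72. Only 33 genes reached an embryo SD of 1.0, and all 33 were called.

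The test compares RNA samples of 15 embryos and says nothing of a condition. Without embryos 3, 5 and 7 it called 2131 of 4390 genes, of which 1691 were among the 1779. Without embryos 1 and 11, the most deviating, it called 1216 of 4376, of which 1177 were among the 1779. Genes at both ends of the ratio scale were called more often. Of 5 equal bins of mean ratio, the lowest had 48.6% and the highest 53.8% called, and the middle bin, where the dye-swap SD was largest at a median of 0.42, 27.2%. Some genes were measured by several probes. Over embryos, probes of the same gene correlated with a median r of 0.535 for 330 called genes and of 0.014 for 576 genes that were not called. The call was made on the mean of these same probes, in which discordant probes cancel. A higher r in called genes is thus partly built in and is no separate check.

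**Figure D1:**
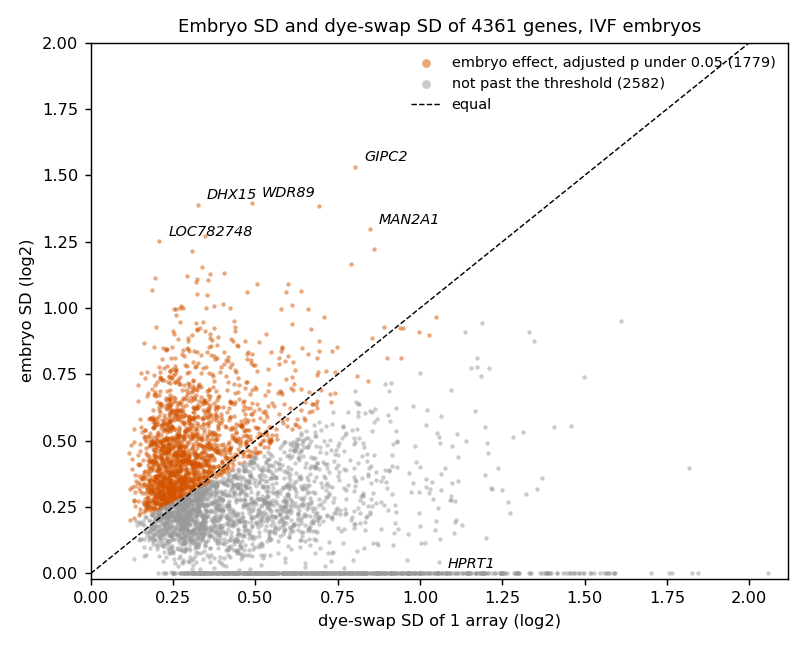
Each point is 1 of 4361 genes, with the dye-swap SD of 1 array (log2, horizontal) against the embryo SD over the IVF embryos (log2, vertical). Orange points are the 1779 genes with an embryo effect, grey points the 2582 others, and the dashed line marks equal values. Most genes past the threshold lie above the line, and the row at 0 holds genes such as HPRT1 whose embryos differed by no more than their arrays.

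The 20 genes with the largest embryo SD, from 1.09 to 1.53, are taken first. Their fold range, the highest embryo over the lowest, ran from 8.80 to 49.8, and their Cy5 and Cy3 arrays correlated over the 15 embryos with r from 0.675 to 0.975. All 20 were chosen for this spread, so that their own size is a description. All but FBXL20, with 2 probes that correlated with r 0.933, were measured by 1 probe. Their spread was not a matter of IVF alone: 19 of the 20 were also called within AI embryos (background 45.2%) and 18 within NT embryos (background 39.6%).

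Several were regulators of transcription and RNA. DHX15, a helicase that takes the spliceosome apart, ran from -1.69 in embryo 18 over a median of -0.69 to 3.11 in embryo 19, with 1.61 in embryo 12 as the next highest. Its embryo SD was 1.39 and the adjusted p of the moderated F test was 5.35e-07. Embryo 19 stood apart above the other 14, and without it the SD was 1.04. DMTF1, a Myb-like factor that binds cyclin D and can halt the cell cycle, ran from -3.49 in embryo 11 and -3.35 in embryo 1 over a median of -0.27 to 0.77 in embryo 13. The embryos fell into 2 low ones and 13 others, with a gap of 2.24 between them, and without embryos 1 and 11 the SD was 0.56, against 1.27 with them. SP1, the zinc finger factor of GC boxes, ran from -1.42 in embryo 12 over 0.24 to 2.73 in embryo 1 (embryo SD 1.11, adjusted p = 2.92e-06). POLR1H, a small subunit of RNA polymerase I, ran from -2.24 in embryo 9 over -1.33 to 0.90 in embryo 11. Its embryos formed 10 low and 5 high ones (embryos 5, 3, 7, 12 and 11), and it had the smallest dye-swap SD of the 20, 0.19. Embryos 3, 5 and 7 among the high ones are those whose arrays did not match, and without them the embryo SD was 1.02, against 1.11.

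A further group acts in protein degradation and trafficking. NEDD4, a ubiquitin ligase of membrane proteins, ran from -2.74 in embryo 10 over -0.13 to 2.15 in embryo 18. FBXL20 and KLHL15 provide substrates to ubiquitin ligases. FBXL20 ran from -1.42 in embryo 7 over 0.94 to 2.13 in embryo 9, with embryos 7, 6, 13 and 19 below a gap of 0.98. KLHL15 ran from -1.52 in embryo 11 over 0.70 to 2.63 in embryo 1. These 3 had embryo SDs of 1.22, 1.16 and 1.17, but NEDD4 and KLHL15 were also noisy, with dye-swap SDs of 0.86 and 0.79. MAN2A1, a Golgi mannosidase that trims N-glycans, ran from -1.79 in embryo 7 over 0.25 to 3.79 in embryo 18, and its call was lost when the gene-specific dye bias was left out of the model (adjusted p 0.070 in that moderated F test, against 0.00129 with it). GIPC2, a PDZ domain adaptor, had the largest embryo SD of all, 1.53. It ran from -1.31 in embryo 9 over 2.48 to 3.99 in embryo 13, and embryos 9, 11, 6, 3 and 5 lay below a gap of 1.39. IFT88, which carries cargo into cilia, ran from -3.53 in embryo 3 over -1.42 to 0.43 in embryo 18.

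Mitochondrial and stress genes were a further group. QRSL1, a subunit of the enzyme that makes glutaminyl-tRNA in mitochondria, ran from -2.63 in embryo 11 over 0.58 to 2.05 in embryo 9. Embryos 11 and 1, at -1.24, were its lowest, and without both the SD was 0.53, against 1.10. COA7, an assembly factor of cytochrome c oxidase, ran from -1.87 in embryo 18 over 1.41 to 2.18 in embryo 13, and 1 embryo lay below a gap of 1.16. OCIAD2, a mitochondrial membrane protein, spread evenly from -4.03 in embryo 19 over -1.84 to -0.05 in embryo 7. OSGIN2, of a family induced by oxidative stress, ran from -4.11 in embryo 11 over -1.03 to 0.17 in embryo 4. SH3BGRL, a small thioredoxin-like protein, ran from -4.10 in embryo 19 over -2.18 to -0.16 in embryo 12. In OCIAD2 and SH3BGRL no gap between neighbouring embryos was over 0.61.

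The other 5 were WDR89, TM7SF3, LHFPL2, KCTD18 and LOC782748, the last with no name beyond its identifier. WDR89, a WD repeat protein, ran from -2.90 in embryo 1 over 1.71 to 2.74 in embryo 16, the widest range of the 20. Embryo 1 lay 2.26 below its neighbour, embryo 11 at -0.64, and without embryo 1 the embryo SD was 0.86, or 1.62 times smaller. TM7SF3, a membrane protein, ran from -2.79 in embryo 11 over 0.11 to 2.53 in embryo 1, so that the embryos with the most deviating profiles lay at its opposite ends. LOC782748 separated embryos 1 and 19, at -1.93 and -1.87, from the other 13 by a gap of 1.31. It had the highest reliability of the 20, 0.973. KCTD18, a BTB domain protein, ran from -2.55 in embryo 18 over -0.20 to 2.40 in embryo 11, and LHFPL2, a tetraspan membrane protein, from -1.91 in embryo 18 over -0.06 to 2.22 in embryo 7.

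**Figure D2:**
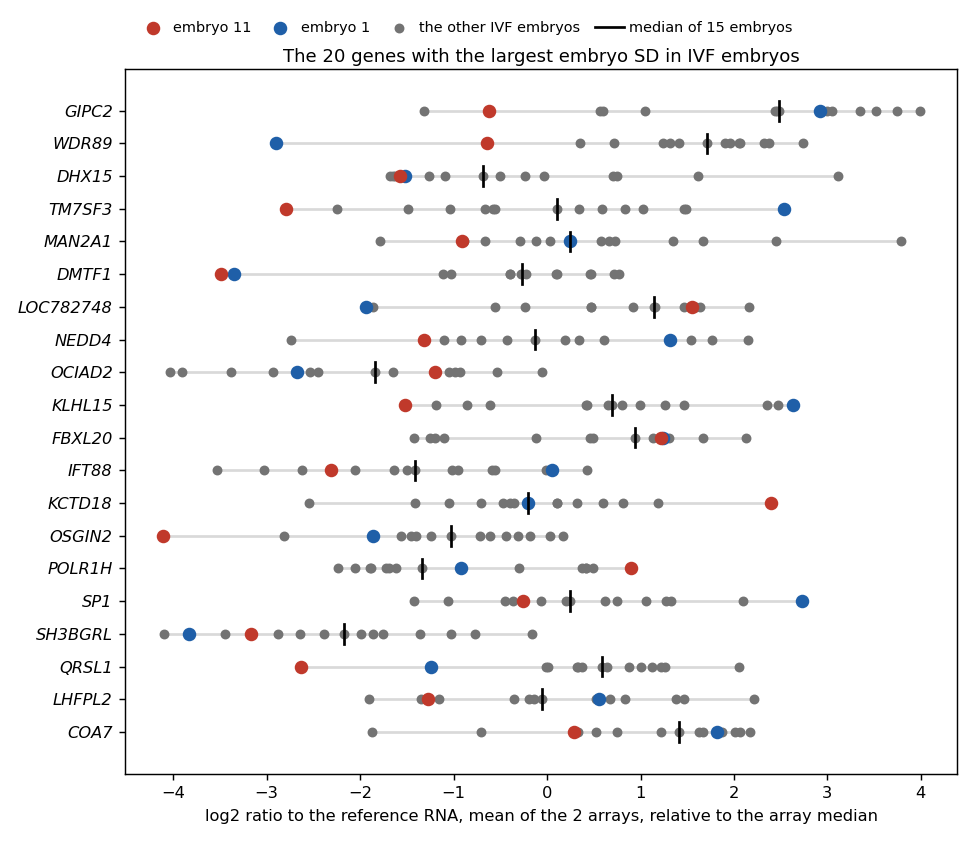
Each row is 1 of the 20 genes with the largest embryo SD, each point 1 of the 15 IVF embryos (log2 ratio to the reference, mean of the 2 arrays, relative to the array median), and the black tick is the median. Embryo 11 (red) is the lowest in 5 rows and the highest in 2, and embryo 1 (blue) the lowest in 2 and the highest in 3. DMTF1 and LOC782748 show 2 low embryos apart from the others, and DHX15 and MAN2A1 a single high one.

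Gene lists for cell types and pathways are described by how many measured members were called, against 40.8% of all genes, and by the median embryo SD, against 0.30. Of 13 genes listed as trophoblast secreted proteins, 7 were called and the median was 0.48. TKDP1, a Kunitz domain protein of the trophoblast, ran from 0.87 in embryo 9 and 0.90 in embryo 5 over 3.04 to 4.03 in embryo 18 (embryo SD 1.06). SSLP1 ran from 0.19 in embryo 18 over 2.42 to 3.49 in embryo 13 (0.92). The pregnancy-associated glycoproteins PAG12 and PAG17, of the aspartic protease family that reaches maternal blood, were both lowest in embryo 7, PAG12 at -1.43 with a median of 2.27 and a highest value of 3.38. PAG genes are close copies, so that their spots may share signal. The PAG12 call was lost without embryo 1 and without embryo 10. PTGS2, a prostaglandin synthase and not itself a secreted protein, was counted on this list and also on that of steroid and prostaglandin synthesis. It was at 4.89 to 5.48 in all 15 embryos and had an embryo SD of 0. The deviation of the trophoblast list in embryo 7 was -1.06 on its Cy5 and -0.06 on its Cy3 array, so that it was not shared by the arrays.

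The other lists of blastocyst cell types had lower medians, from 0.21 to 0.43. Of 12 trophectoderm transcription factors 3 were called, with a median of 0.21. GATA3 was among them at 1.49 in embryo 9 to 2.99 in embryo 18, although its 2 probes disagreed (r -0.331), and so was ID2, whose spread rested on embryo 1 at -2.41 (embryo SD 0.45, and 0.27 without it). Of 15 genes of keratins, junctions and epithelium 5 were called. CLDN1, a tight junction protein, ran from -1.56 in embryo 9 over 0.34 to 2.50 in embryo 18 (embryo SD 1.00, adjusted p of the moderated F test 1.86e-06), and KRT19 from 1.81 in embryo 11 over 2.39 to 3.23 in embryo 2. Both measured channels that were called, AQP3 and AQP11, belong to a list of 4 blastocoel pumps and channels, and AQP3 was lowest in embryo 11. Of 6 inner cell mass and pluripotency genes 3 were called, led by SPIC, a factor of the ETS family (0.61 in embryo 11, median 2.92, 4.48 in embryo 9), whose call was lost without embryo 11. Of 11 primitive endoderm genes 7 were called. DAB2, an endocytic adaptor, ran from 0.31 in embryo 18 over 1.45 to 3.11 in embryo 9, and SPARC, a matrix protein, from -2.56 in embryo 2 over -1.48 to -1.09 in embryo 18.

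Markers of cells that could have been carried along had medians under that of all genes. Of 2 oocyte and maternal transcripts 0 were called, of 6 cumulus and granulosa genes 1 (HSD3B1), of 8 blood and immune genes 1 (BOLA-DRB3) and of 14 fibroblast and matrix genes 4. The call of BOLA-DRB3 was lost without embryo 12, that of HSD3B1 without embryo 5 and that of COL3A1, 1 of the 4, without embryo 7 or 19. The medians were 0, 0.19, 0.10 and 0.23. CAV1, the coat protein of caveolae, was the most variable of the fibroblast list (-5.43 in embryo 1, median -4.57, -3.33 in embryo 13), and COL1A2 ran from -4.32 to -3.06. All 14 fibroblast and matrix genes and all 8 blood and immune genes lay below their mean in embryo 7, whose arrays did not match each other. The share of all genes below their mean in embryo 7 is not given here. Over embryos, list means on Cy5 and on Cy3 arrays correlated with r 0.649 for the fibroblast list. For the blood list that r was only 0.037, so that its count can rest on 1 array. Of 5 sex chromosome genes 1 was called and of 7 interferon response genes 1, IFI30, a lysosomal thiol reductase (-0.39 in embryo 18, median 1.22, 3.29 in embryo 1).

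Of the 30 lists, cholesterol and lipid synthesis had the highest share of members called and steroid and prostaglandin synthesis the highest median. In cholesterol and lipid synthesis 10 of 12 members were called, with a median embryo SD of 0.46 and a median reliability of 0.71, against 0.40 over all genes. LSS, which closes the sterol ring, ran from -1.08 in embryo 2 over -0.10 to 1.45 in embryo 11. The later enzyme EBP ran the other way in embryo 11, its lowest at -1.14, with a median of 0.59 and 1.39 in embryo 1. NSDHL ran from -0.50 in embryo 18 over 0.35 to 2.06 in embryo 1, whereas MSMO1 was lowest in embryo 1, at -0.40 with a median of 1.30. Enzymes of the same pathway thus lay at opposite ends of their ranges within an embryo. Of 9 genes of steroid and prostaglandin synthesis 5 were called, with a median of 0.59. SULT1E1, the estrogen sulfotransferase, ran from -1.62 in embryo 6 over -0.90 to 1.22 in embryo 2. FDX1, which passes electrons to steroid hydroxylases, ran from -2.09 in embryo 11 over -0.59 to 0.26 in embryo 7, and HSD3B1, which makes progesterone, from -2.08 in embryo 5 over -0.15 to 0.84 in embryo 1.

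Among other metabolic and stress lists, 9 of 16 genes of glycolysis and glucose uptake were called. PGK1, a glycolytic kinase encoded on the X chromosome, ran from -1.84 in embryo 11 over -0.66 to 0.93 in embryo 12, and SLC2A1, the glucose transporter GLUT1, from -0.46 in embryo 11 over 0.59 to 1.87 in embryo 1. Of 12 genes of the amino acid response and serine synthesis 7 were called. PSPH, the last enzyme of serine synthesis, ran from -3.81 in embryo 1 over -1.90 to -0.99 in embryo 16, and MTHFD2, of mitochondrial folate metabolism, from 0.53 in embryo 6 over 1.82 to 2.90 in embryo 16. Of 22 heat shock and chaperone genes 12 were called. HSPB8, a small heat shock protein, ran from -2.58 in embryo 19 over -0.93 to 0.64 in embryo 18 (embryo SD 0.95). Of 24 antioxidant and metallothionein genes 8 were called, with HMOX1, the inducible heme oxygenase, from -1.85 in embryo 11 over 0.11 to 1.49 in embryo 13. Of 10 genes of apoptosis and DNA damage 5 were called, with MDM2, the ligase of p53, from -2.33 in embryo 1 over -0.98 to -0.23 in embryo 5.

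Lists of growth, chromatin and housekeeping had between 28.6% and 47.6% of their members called. Of 15 cell cycle and DNA replication genes 5 were called. CCNE1, cyclin E, ran from 1.21 in embryo 18 over 2.31 to 3.77 in embryo 11, and MCM2, of the replicative helicase, from -0.77 in embryo 10 over 0.74 to 1.30 in embryo 16. Of 21 immediate early genes and YAP targets 10 were called. FOS, a factor that rises within minutes of a stimulus, ran from -3.02 in embryo 12 over -2.13 to -0.44 in embryo 19, and EGR1, of the same kind, from -4.92 in embryo 11 over -4.01 to -2.25 in embryo 6. ANKRD1, a YAP target, was high in embryo 18, at -0.33 with a median of -3.14. Of 16 imprinted genes 6 were called, of 16 genes of DNA methylation and chromatin 5 and of 7 histones and variants 2. Of 45 cytosolic ribosomal proteins 17 were called, of 47 respiratory chain and ATP synthase genes 21, of 39 mitochondrial ribosomal proteins 18, of 22 proteasome subunits 9 and of 35 genes named as translation factors 11. The medians of these last lists were 0.26, 0.31, 0.32, 0.26 and 0.27.

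**Figure D3:**
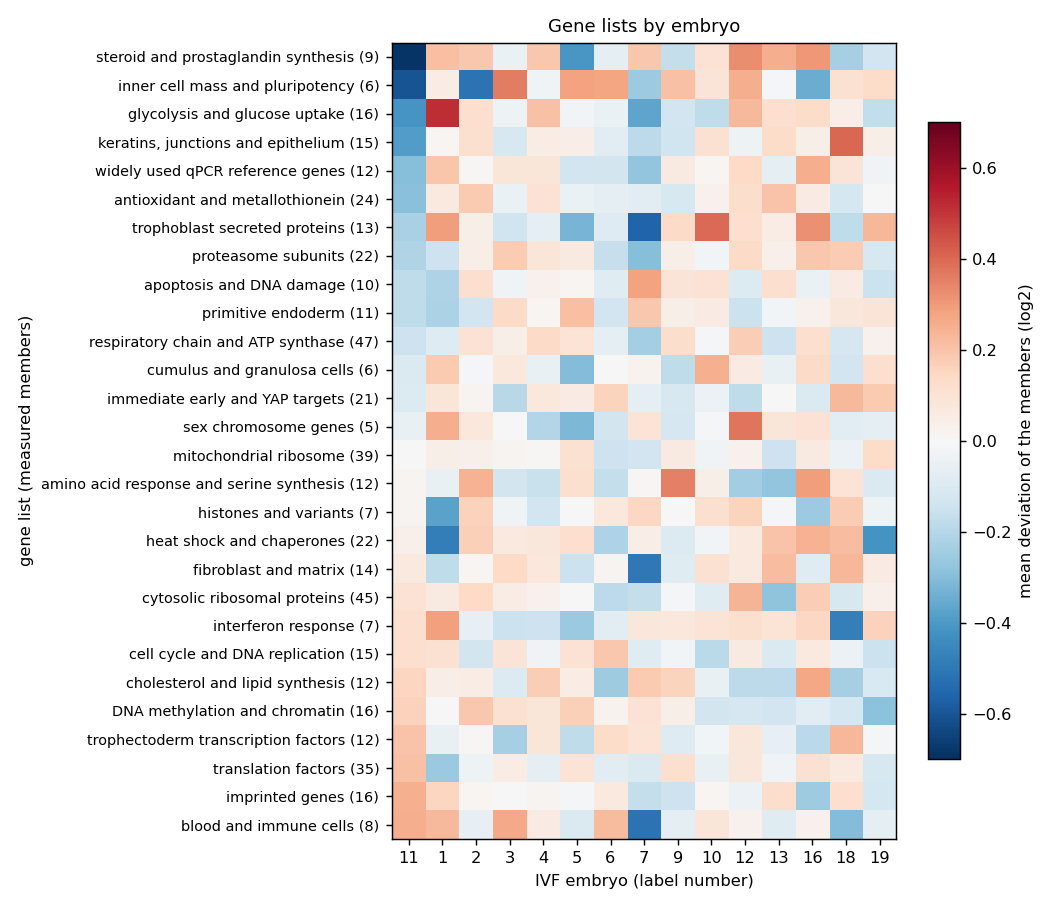
Mean deviation of a list's measured members (number in brackets) from the mean of the 15 IVF embryos, on the log2 scale, by list (rows) and embryo (columns, embryo 11 first), for lists of at least 5 members. The lowest fields are steroid and prostaglandin synthesis (-0.69) and inner cell mass and pluripotency (-0.60) in embryo 11 and trophoblast secreted proteins in embryo 7 (-0.56), and the highest is glycolysis in embryo 1 (0.52). Most other fields are pale.

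The embryos did not share the variation evenly. For each called gene the embryo farthest from the mean was taken: embryo 11 was that embryo in 425 genes, or 23.9% of 1779, and embryo 1 in 408, or 22.9%. Embryo 19 followed with 200, embryo 18 with 165 and embryo 7 with 129, and the other 10 embryos had between 18 and 99 each. In 251 called genes, or 14.1%, a single embryo held more of the sum of squares than the other 14 together.

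Embryo 11 was the most deviating by typical deviation, the median absolute distance from the mean of the 15 over 4083 genes. It was 0.41 in embryo 11, against 0.21 to 0.38 in the other 14 (median 0.24). Its mean correlation with the other 14 was the lowest of all at r 0.708, against 0.724 to 0.838 in the others. By dye, the typical deviation was 0.52 on its Cy5 array, above the 0.25 to 0.44 of the others, and 0.38 on its Cy3 array, within the 0.25 to 0.41 of the others. Its Cy5 array also had the lowest deposited median of the IVF arrays labelled that way (-2.14, against -1.49 to 0.02), the highest share of missing values (8.17%, against 1.38% to 6.95%) and the widest distribution (median absolute deviation 0.84, against 0.61 to 0.79). On the Cy3 array these values were -0.04, 2.95% and 0.73, all within the range of the other 14. The part of these array measures in the embryo's deviation was not tested.

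The deviations on the arrays of embryo 11 correlated with r 0.564 over genes, behind embryos 1 and 13. The first principal component of the 15 embryos, with 16.1% of the variance, set embryo 11 (score 43.7) apart from the other 14 (-7.91 to 8.64). The second, with 14.7%, set embryo 1 (37.5) apart from the others (-10.8 to 14.1), and the third, with 10.4%, ran from embryo 7 (-22.3) to embryo 19 (22.3). Of 15 relations of these components with array measures, 1 passed after adjustment. Scores on the first component correlated with the width of the arrays with r 0.741 (rho 0.618, permutation p 0.00081, adjusted p = 0.0121), and with r 0.404 without the 2 embryos farthest from the median width. By rank, the share of missing values was related to the same component (rho 0.868, permutation p adjusted to 0.00105, and Pearson r 0.554, adjusted to 0.174). Without embryo 11, 0 of 15 passed by r and the same 1 by rho (0.846, permutation p adjusted to 0.0042). Typical deviation was likewise related to the width of the arrays, in a family of 5 relations, with r 0.756 (adjusted permutation p 0.0066), rho 0.661 (0.047) and r 0.564 without the 2 farthest embryos. Without embryo 11 that r was 0.610 (adjusted permutation p 0.052). Width, typical deviation and component scores are computed from the same values, so that an embryo that deviates in many genes can widen its own arrays. A positive relation is thus partly built in, and width is no separate measure of array quality.

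Embryo 11 lay outside the other 14 on both arrays in 413 of 4083 genes, above them in 199 and below them in 214. Embryo 1 did so in more, 184 above and 283 below, and the others in 23 to 220. Of the 413 genes of embryo 11, 307 were called (background 40.8%), a count to which embryo 11 itself contributes. In 279 its value was also outside every AI and every NT embryo. The 413 were picked for being extreme in embryo 11. Neither the share over all genes nor the same count for another embryo is given here, so that 279 is a description. Without embryo 11, 190 of the 413 were called, or 46.0%, against 37.0% of all genes.

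The genes farthest above the others are given by the gap to the next embryo. SGCE, a sarcoglycan gene that is imprinted and expressed from the paternal allele, was at -0.30 in embryo 11 (0.00 on Cy5 and -0.60 on Cy3), against -4.69 to -3.92 in the other 14, -5.22 to -4.01 in AI and -4.79 to -3.95 in NT embryos. Its median distance was 17.5-fold, and without embryo 11 its embryo SD was 0. The 2 donor cell samples lay at -1.36 and 0.06 for SGCE, so that embryo 11 was outside the other embryos but not outside the donor cells. KMT2E, a trithorax family protein, was at 3.01, against -1.51 to 0.62, and MECR, a reductase of mitochondrial fatty acid synthesis, at 2.13, against -1.14 to 0.53. Both calls were lost without embryo 11. PRXL2B, a prostaglandin F synthase, was at 1.31 (others -1.68 to -0.02), LMCD1, a LIM domain protein whose call was also lost without embryo 11, at 0.05 (others -2.60 to -1.26) and FAM168B at -0.34 (others -2.97 to -1.69). MIA3, ZDHHC1, NDUFAF3 and BRWD1 were also among the 10 with the widest gaps, from 1.33 to 1.68, but their embryo effect did not pass (adjusted p of the moderated F test from 0.087 to 0.37). FAM168B and BRWD1 were not outside the other kinds of embryo, with AI embryos up to 0.72 and 2.12. Donor cells were at -1.23 and 0.60 for LMCD1, with embryo 11 between them. For KMT2E they were at -0.14 and 0.88, both below embryo 11.

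The 10 genes farthest below the others had gaps of -2.62 to -1.75 to the next embryo. LMAN2, a lectin that carries glycoproteins out of the endoplasmic reticulum, was at -2.07 in embryo 11, against 0.54 to 2.06 in the other 14. TRIM37, a ubiquitin ligase that limits centrosome assembly, was at -3.80 (others -1.26 to 0.41), and SPICE1, a centriole protein, at -3.02 (others -0.70 to 0.84). Gene products of mitochondria among them were RPUSD2, a pseudouridine synthase, at -1.60 (others 0.66 to 2.21), DNAJA3, a chaperone, at -1.57 (others 0.44 to 1.97) and HARS2, a histidyl-tRNA synthetase, at -3.03 (others -1.07 to 0.62). AGPAT5, an acyltransferase of phospholipid synthesis, was at -0.89 (others 1.42 to 2.38), HRH1, a histamine receptor, at -1.23 (others 0.66 to 2.49), SLCO2B1, a transporter of organic anions, at -0.75 (others 1.05 to 3.33) and CDK14, a cyclin-dependent kinase, at -1.49 (others 0.26 to 1.90). All 10 were called. SPICE1 and CDK14 were not outside the other kinds of embryo, with AI embryos down to -3.38 and -1.91 and a lowest NT embryo of -1.97 for CDK14. In LMAN2, RPUSD2, HRH1 and SLCO2B1 both donor cell samples also lay below the other 14 IVF embryos. Donor values were -1.65 and -0.64 for LMAN2 and -1.38 and -1.04 for SLCO2B1. In the remaining genes of the 10 this did not hold, as in HARS2 (-0.41 and 0.25). Without embryo 11 the calls of LMAN2, SPICE1, AGPAT5 and DNAJA3 were lost, and the embryo SDs of the 10 were then 0.27 to 0.55, against 0.74 to 0.95 with it.

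Over the lists, embryo 11 was the lowest of 15 in steroid and prostaglandin synthesis, with a mean deviation of -0.69 over 9 genes (-1.03 on Cy5, -0.34 on Cy3) and 8 of 9 below the mean. It was also lowest in glycolysis and glucose uptake (-0.42, 12 of 16 below), in keratins, junctions and epithelium (-0.39, 11 of 15 below), in inner cell mass and pluripotency (-0.60, 5 of 6 below) and in antioxidant and metallothionein genes (-0.30, 16 of 24 below). On both arrays these 5 lists lay below 0. The PCR reference genes were lowest in embryo 11 as well (-0.30, 8 of 12 below), at -0.59 on its Cy5 and -0.01 on its Cy3 array. Imprinted genes, SGCE among them, had their highest mean in embryo 11 (0.25, 6 of 16 below). Translation factors also had their highest mean in it (0.21, 22 of 35 above). The lists above were picked for being extreme in embryo 11. The share of all genes below their mean in embryo 11 is not given here. The counts are thus descriptions, and a shift of these lists beyond that of all genes was not tested. Of 45 ribosomal proteins 5 were highest in embryo 11 on both arrays and 0 lowest, against 4.87% highest and 5.24% lowest of all genes. FDX1, AQP3, TXN2 (mitochondrial thioredoxin), SOD2 (mitochondrial superoxide dismutase) and PSMB6 (a proteasome subunit) were lowest in it on both arrays.

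**Figure D4:**
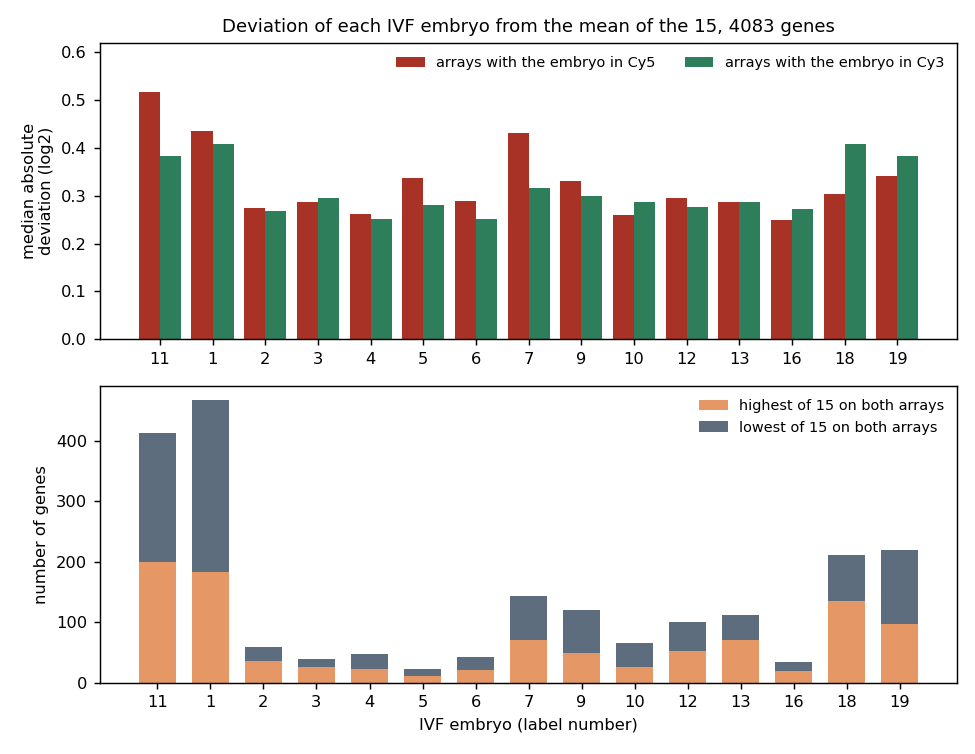
Upper panel: median absolute deviation (log2) of each IVF embryo from the mean of the 15, on the array with the embryo in Cy5 (red) and in Cy3 (green), over 4083 genes. Lower panel: number of genes in which an embryo is the highest (orange) or lowest (grey) of 15 on both arrays. Embryo 11 has the tallest Cy5 bar (0.52), and embryos 11 and 1 have 413 and 467 extreme genes, more than any other embryo.

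Embryo 1 deviated partly in the same genes as embryo 11. In DMTF1, QRSL1, WDR89, ID2 and HSPE1 these embryos were the lowest and second lowest, whereas in TM7SF3 and KLHL15 they lay at opposite ends. The arrays of embryo 1 had the highest agreement of the 15 (r 0.650), and its typical deviation was 0.38. Chaperones were lowest in it, with a mean of -0.48 over 22 genes and 16 of 22 below the mean (-0.46 on Cy5, -0.51 on Cy3). CCT8, of the chaperonin that folds actin and tubulin, was at -1.09 in embryo 1 with a median of 0.85, HSPA4 at 0.08 with a median of 1.89, and HSPE1, the mitochondrial co-chaperonin, at -0.86 with a median of 0.23. The calls of CCT8 and HSPA4 were lost without embryo 1. EIF3M, EIF4A2 and EEF1B2 of translation, PCNA of DNA replication and the histone variant gene H3-3A were lowest in embryo 1 as well. Glycolysis was highest in it, with a mean of 0.52 and 12 of 16 above the mean (0.71 on Cy5, 0.32 on Cy3). Embryo 19 came second in low chaperones (-0.42, 19 of 22 below). Embryo 18 was highest in keratins, junctions and epithelium (0.40, 13 of 15 above) and lowest in interferon response (-0.48, although 4 of 7 members lay above their mean). The lists named for embryos 1, 18 and 19 were likewise picked for their high or low means. The share of all genes below their mean in these embryos is not given here. The 10 embryos 2, 3, 4, 5, 6, 9, 10, 12, 13 and 16 had typical deviations of 0.21 to 0.26.

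Which of the most variable genes varied together was asked of all 190 pairs of the 20. No pair passed after adjustment over the 190 (0 by Pearson r and 0 by Spearman rho, with a smallest adjusted p of 0.247), and 12 pairs had an unadjusted permutation p under 0.05. Correlations ran from -0.638 to 0.801 with a median near 0. The 15 embryos thus gave no pair that stands out among the 190, and the pairs that follow are descriptions.

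DMTF1 and QRSL1 had the highest r, 0.801 (rho 0.536, permutation p 0.0026, adjusted p = 0.247), and the same pair taken crosswise over the dyes gave 0.808 and 0.695. It rested on the 2 embryos that were low in both, 1 and 11: without them r was 0.157. WDR89 behaved alike with DMTF1 (r 0.689) and QRSL1 (r 0.661), with r of -0.392 and 0.065 without those embryos. GIPC2 and OSGIN2 correlated with r 0.738 (rho 0.596), and with r 0.392 without the 2 embryos farthest from the median of GIPC2, so that this relation rested largely on those. LHFPL2 and COA7 correlated with r 0.657 (rho 0.504), and with 0.617 without the 2 embryos farthest from the median of LHFPL2. SP1 and SH3BGRL ran against each other with r -0.638 (rho -0.518), and with -0.376 without the 2 farthest from the median of SP1. Within AI embryos the r of these last 3 pairs was 0.337, 0.299 and -0.008, and within NT embryos 0.588, -0.005 and 0.124.

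**Figure D5:**
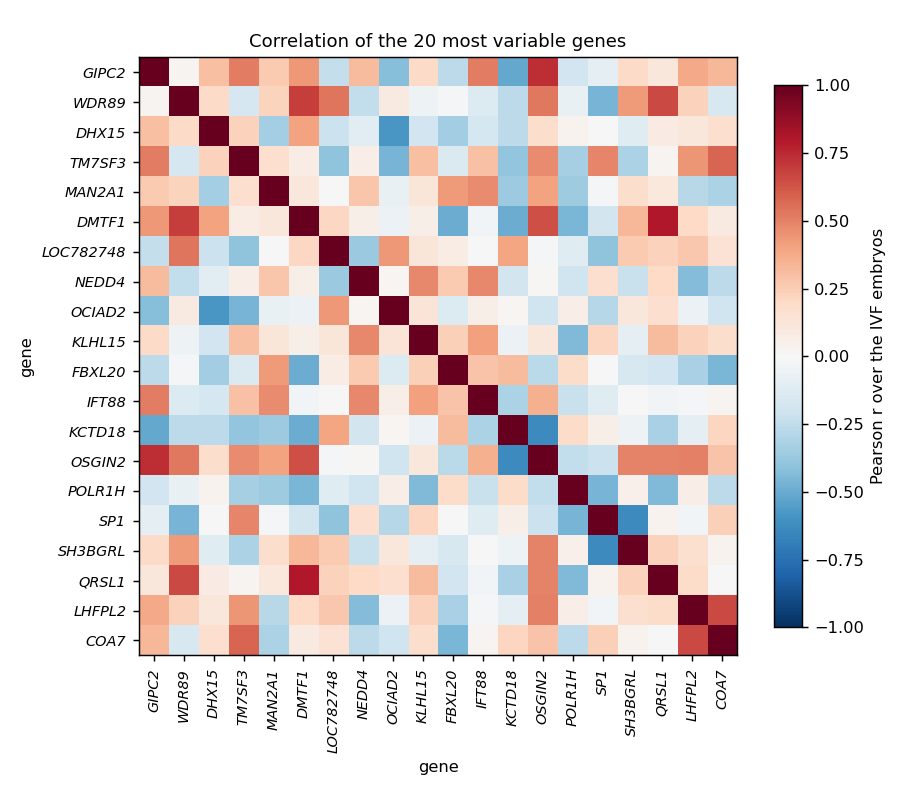
Pearson r over the IVF embryos between each pair of the 20 most variable genes (both axes, in order of embryo SD), from -1 (blue) to 1 (red). The reddest fields off the diagonal are DMTF1 with QRSL1 (0.801) and GIPC2 with OSGIN2 (0.738), and the bluest SP1 with SH3BGRL and KCTD18 with OSGIN2 (both -0.638). No pair passed adjustment over the 190.

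Partners outside the 20 were sought among the other 1775 called genes measured in at least 14 embryos, for the 5 genes of largest embryo SD. The highest of so many correlations is high by selection, so that no p is given. GIPC2 was most like TMEM222 (r 0.83), HACD2, which elongates very long fatty acids (0.82), and CXCL16, a chemokine (0.78), and most opposed to BZW2 (-0.78). WDR89 was most like SARNP, of mRNA export (0.90), LLPH (0.88) and ID2, the trophectoderm factor (0.88), all with embryo 1 low, and most opposed to STK17B (-0.84). DHX15 was most like ABHD14B (0.81), ABRACL (0.70) and ATF6B, of the unfolded protein response (0.69), and most opposed to SPAG1 (-0.77). TM7SF3 was opposed to DEGS1, which makes ceramide, with r -0.93 (rho -0.94, and -0.91 without embryo 11), and ran with BHLHE40 (0.81), MEPCE (0.80) and RAB11FIP5 (0.77). MAN2A1 ran with RPS9 (0.70), ENPP4 (0.69) and BLOC1S2 (0.69) and against RNF113A (-0.79). The same pairs did not keep these values elsewhere: TM7SF3 and DEGS1 had r 0.30 in AI and -0.05 in NT embryos, and WDR89 and SARNP 0.16 and 0.37.

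The most constant genes were ranked by the SD over the 15 embryos of the 2-array mean, which includes dye-swap error, among 4083 genes with a median SD of 0.43. RDH10, a retinol dehydrogenase, was the most constant, from 0.28 over a median of 0.37 to 0.62 (SD 0.11). RPL35, a ribosomal protein, ran from -2.43 over -2.24 to -2.03 (SD 0.12), and DDR1, a collagen receptor, from -1.06 over -0.89 to -0.57 (SD 0.13). They were followed by WIPI2 of autophagosome formation, TST, a mitochondrial sulfurtransferase, C1QTNF5, RANGAP1 of nuclear transport, YWHAB, a 14-3-3 protein, LRATD1, RBM17, a splicing factor, TSPAN1 and KLHL25. Among these 12 the SD was 0.11 to 0.15 and the highest embryo was 1.27 to 1.55 times the lowest. None of the 12 was called, and their embryo SDs ran from 0 to 0.10. A small SD can also arise where errors of the 2 arrays cancel in their mean. In C1QTNF5 and WIPI2 the Cy5 and Cy3 arrays ran against each other over embryos (r -0.582 and -0.413), with dye-swap SDs of 0.36 and 0.28. RPL35, DDR1, TST, RANGAP1, YWHAB, LRATD1 and RBM17 were means of 2 or 3 probes. The median r between their probes over embryos was below 0, from -0.616 in DDR1 to -0.026 in YWHAB. Averaging such probes lowers the SD, also in AI and NT embryos, so that their rank rests partly on it. RPL35, LRATD1, TSPAN1, KLHL25, RBM17, TST and RANGAP1 were also in the most constant 10% within AI and within NT embryos, whereas WIPI2 lay at the 31.2 and 27.5 percentile of SD there. In AI embryos C1QTNF5 lay at the 49.7 and DDR1 at the 22.9 percentile. WIPI2 and DDR1 were called within AI embryos (adjusted p of the moderated F test 0.0148 and 0.0260) and YWHAB within NT embryos (0.0425).

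Genes used as references in PCR were called about as often as all genes. Of the 12 measured, PGK1, RPS9, GAPDH, RPS18 and RPL15 were called, or 41.7% against 40.8%. The call of RPL15 was lost without embryo 11. PGK1 and RPS9 spanned 6.85-fold and 5.29-fold between embryos, RPS9 from -3.85 in embryo 7 over -2.72 to -1.45 in embryo 18 (embryo SD 0.57). GAPDH ran from -2.27 over -1.48 to -0.16 in embryo 1, and its call (adjusted p 0.048) was lost without embryo 1, with an embryo SD of 0.16 in place of 0.38, and also without embryo 5, 6, 9, 10 or 13. GUSB, PPIA and H2AZ1 had the smallest SDs of the 12, 0.21, 0.23 and 0.26, at the 2.94, 5.57 and 9.81 percentile of all genes. HPRT1 had an SD of 0.65 that did not go beyond dye-swap error (dye-swap SD 1.06, embryo SD 0), and EIF2B2 likewise had an embryo SD of 0. Negative estimates of the embryo variance were set to 0, so that a true spread under so large an error can go unseen. TUBA1A and SDHA had embryo SDs of 0.19 and 0.34 that did not pass.

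IVF embryos were then set beside the other kinds. The typical deviation per embryo, here scaled for group size, was 0.284 ± 0.064 (SD, n = 15) in IVF embryos, against 0.283 ± 0.029 (n = 14) in AI and 0.269 ± 0.027 (n = 15) in NT embryos. It ran from 0.216 to 0.423 in IVF, against 0.247 to 0.345 in AI and 0.231 to 0.330 in NT. The mean difference was 0.0011 against AI (permutation p 0.955, adjusted p = 0.955) and 0.0150 against NT (permutation p 0.415, adjusted p = 0.831), and 5 and 7 of 15 IVF embryos lay above the mean of AI and of NT. IVF embryos thus held both the lowest and the highest typical deviation of the 44 embryos, and a difference of the means was not detectable.

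Per gene, a limma fit to absolute deviations found a larger spread in IVF than in AI embryos for 2 of 4260 genes (0.0469%) and a smaller one for 0, with 385 at an unadjusted p under 0.05 (9.04%). Against NT embryos 3 had a larger spread (0.0704%) and 0 a smaller one, with 318 unadjusted (7.46%). POLR1H ran from -2.24 over -1.33 to 0.90 in IVF, against 0.68 over 1.04 to 1.63 in NT embryos, and the SDs were 1.12 and 0.28 (difference of deviations 0.81 ± 0.15, SE, adjusted p = 0.0127). The groups overlapped only in embryo 11 of the IVF embryos. AI embryos ran from -2.04 to 0.88 with an SD of 0.95, and the difference of deviations against them, 0.27, did not pass (adjusted p = 0.609). PRADC1, a secreted protease-associated domain protein, had an SD of 0.99 in IVF, against 0.25 in NT embryos (adjusted p = 0.0395). In AI embryos its SD was 1.07 (adjusted p of IVF against AI 0.739). PPP1R26, a regulator of protein phosphatase 1, had an SD of 1.22 in 13 IVF embryos, against 0.41 in AI embryos (adjusted p = 0.0274). TPRG1L, a synaptic vesicle protein in the brain, had an SD of 0.49 in IVF, against 0.17 in AI and 0.16 in NT embryos (adjusted p = 0.0274 and 0.0178). On Cy5 arrays alone its differences of deviations were -0.02 and -0.04, and on Cy3 arrays alone 0.59 and 0.62. Its own embryo effect and that of PPP1R26 did not pass (adjusted p 0.368 and 0.069), so that their spread includes array error. With deviations from the group median in place of the mean none of these differences passed, and without embryo 11 the counts were 0 against AI and 2 against NT.

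Many of the same genes varied in each kind. Of 1776 genes called in IVF and tested in AI, 1309 were called in AI too, which is 73.7% of the IVF list and 67.6% of the AI list of 1935 (background 45.3% called in AI). With NT 1195 were shared, 67.2% of the IVF list and 69.4% of the NT list of 1722 (background 39.8% called in NT). Over genes, the embryo SD in IVF had a rank correlation of 0.50 with that in AI and of 0.46 with that in NT embryos, which is a description across genes that share probes and array noise. In all 3 kinds 1011 genes were called, among them GIPC2, DHX15, TM7SF3, OCIAD2 and SP1, whereas NEDD4 was not called in AI (embryo SD 0.28) and MAN2A1 and POLR1H not in NT embryos (0 and 0.22).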

How the data were processed

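The authors deposited a log2 ratio of both dyes for every spot. Scanner software, background correction and normalisation are not given in the sources used here. Per the labels' protocols, embryo RNA went through 3 rounds of linear amplification and reference RNA through 2. The sign of each Cy3 array was flipped, since the arrays of a sample correlated negatively as deposited. Values above 16 (a fill value of 16.61, 932 cells in IVF arrays) were set to missing, each array was centred on its median, duplicate spots were averaged (16416 spots, 8208 probes), and a gene was the mean of its probes of 1 symbol, which gave 4452 genes. The probe annotation gave 5598 probes 1 symbol, 95 several and 2515 none, and 5591 matched the reference gene table.

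A gene was tested with both arrays in at least 12 embryos. The embryo mean square from the 2-array means was divided by the dye-swap mean square, moderated with squeezeVar of limma 3.58.1 in R 4.3.3, with a gene-specific dye term and Benjamini-Hochberg adjustment at 0.05 over 4361 genes. The test was also run on simulated normal values (10 draws), in which 4161 of 4361 genes had no embryo effect. It recovered there 12.8% of genes with a true embryo SD of 0.3, 65.8% of 0.6, 86.2% of 1.0 and 93.2% of 1.4, and 5.84% of calls were false. In the data 40.8% of genes were called, and the adjusted threshold depends on that share. These rates therefore need not hold for the data. Spread was compared between kinds of embryo by limma on absolute deviations from the group mean, in 1 fit of 44 embryos. Correlations and typical deviations used 100000 permutations, 2-sided, in Python 3.11 with SciPy. Nothing in the labels says whether embryos share a batch, and p-values measure the spread between these samples. Embryos of the same number in IVF and AI did not deviate together (r from -0.057 to 0.097 over 7 numbers). Sequences and coordinates were not used here.

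Genes named are the 20 of largest embryo SD in at least 14 embryos, up to 4 called members of largest SD per list, the 12 most constant genes and all PCR reference genes, the 10 genes above and 10 below all others in embryo 11 with the widest gaps, genes past the threshold in the spread comparisons, and for 5 genes the 3 most similar and the most opposite. List members not called, as PTGS2, and the markers named with the label fall outside this rule. The subject, the lists and these rules were chosen with earlier results of these data known. Alternatives covered normalisation, probes, filters, moderation, the dye term and left-out embryos.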

Additional observations from a re-analysis of the deposited data

How the results depend on the processing

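The number of genes with an embryo effect in IVF embryos, 1779, stayed within 1.5 times under all alternatives but 2. It was 273 with the arrays as deposited, where the offset of each array enters the dye-swap error by construction, and 2854 of 7899 when probes were tested in place of genes. It ran from 1474 (without embryo 1) to 1898 (without embryo 7) when each embryo was left out, and was 1216 without embryos 1 and 11 and 2131 without embryos 3, 5 and 7, both chosen after seeing the data. The spread of IVF against AI embryos, 2 genes, was 0 as deposited, 1 on Cy3 arrays, 0 with deviations from the group median and 0 without embryo 11. With the embryo number as a block (replicate block) over the 7 shared numbers it was 0, and 1 over the same embryos without the block, a choice made after seeing the data. Since the numbers do not pair the embryos, a lost call there is not a weaker effect. Against NT, 3 genes, it was 1 as deposited, 1 on Cy5 arrays and 0 with the group median. Among pairs of variable genes 0 passed, and 2 as deposited. The relation of the first principal component to array width, 1 of 15 by r, was 0 without embryo 11. The genes in which embryo 11 lay outside the others, 413, were 239 as deposited. Of the 20 most variable genes, 19 kept their call under each alternative that tested them, and MAN2A1 lost it without a dye term. Depth cannot be given for these ratios. In the self-test, where far fewer genes varied than were called in the data, most genes with an embryo SD of 0.3 went uncalled.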
